A study of Mus musculus with 3 samples.

Results

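The Day 14 wound section was compared with the Day 3 wound section in spatial transcriptomes of murine skin wounds. The comparison took 1 section per day, so its members were 2 of the 3 sections of the series, with 664 of 4992 spots marked as under tissue on Day 3 and 697 of 4992 on Day 14. UMIs (unique molecular identifiers, each standing for 1 captured RNA molecule) were summed per gene over the marked spots of a section. The sums were divided by the section's total to give CPM, UMIs per 1000000 UMIs, and 10955 of 32285 genes with at least 50 UMIs over both sections entered the ratio of Day 14 to Day 3. Both sections came from skin wounds of C57BL/6J mice, and they differed in the time after injury, 3 days or 14 days. According to the study's methods the mice were young adult males with full-thickness excisional wounds of the back, and the harvested punch was wider than the wound, so that each frozen section held wound tissue together with neighbouring skin and the muscle beneath it. The sources do not say that the 2 sections came from more than 1 animal per day, and no replicate section exists for either day.

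A healing skin wound passes from an inflammatory phase, in which neutrophils and then macrophages clear debris and bacteria, through a phase in which keratinocytes cover the gap and fibroblasts fill it with granulation tissue, to a phase in which the new matrix is remodelled into a scar. Hair follicles pass through cycles of growth and rest of their own, and only a growing follicle makes the keratins and trichohyalin of the hair shaft and its inner root sheath. Back skin of the mouse lies on a sheet of striated muscle, the panniculus carnosus. The amount of follicle and muscle in a section therefore enters any difference between days.

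With no replicate section, no test between days was possible, and every interval below is an exact 95% interval that covers counting error only. A gene was called higher or lower on Day 14 when its whole interval lay at or beyond 2-fold, that is at or beyond 1 or -1 on the log2 scale. Ddx17, just inside that limit, had a log2 ratio of 1.21 (interval 1.001 to 1.42), and Luc7l3, just outside it, 1.29 (interval 0.998 to 1.59). At the minimum of UMIs, 47 genes had 50 UMIs and were counted, and 64 genes had 49 UMIs and were not. The median log2 ratio over all counted genes was 0.18 rather than 0, and every ratio is to be read against that shift. In spots that each hold several cells, fewer cells of a type and less RNA per cell cannot be told apart.

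The Day 14 section was the deeper of the pair. It held 4611723 UMIs under tissue, with a median spot of 4827 UMIs and 2337 genes, against 1772259 UMIs and a median spot of 1513 UMIs and 769 genes on Day 3. The spots outside the mark held about as many UMIs, 1703210 on Day 3 and 4715272 on Day 14, and were not used except as an alternative. All 4992 barcodes occur on both slides, because the barcodes belong to the slide layout and not to the cells. Defining markers of skin were present on both days, with 10 epidermal genes at 0.935% of UMIs on Day 3 and 1.16% on Day 14, and 12 genes of fibroblast matrix at 5.82% and 4.26%.

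Of the 10955 counted genes, 510 were higher on Day 14 (4.66% of those counted) and 407 were lower (3.72%). The higher genes were led by keratins and associated proteins of the growing hair follicle, which were almost absent on Day 3. The lower genes were led by chemokines, neutrophil genes, acute phase genes and keratins of wounded epidermis. Of 10 counted fibrillar collagens, which make up the bulk of dermal matrix, 1 was called. Of the calls made, 55.6% were higher under the total-UMI scaling, against 70.9% with the mean of spot CPM and 45.0% with DESeq2 size factors.

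**Figure D1:**
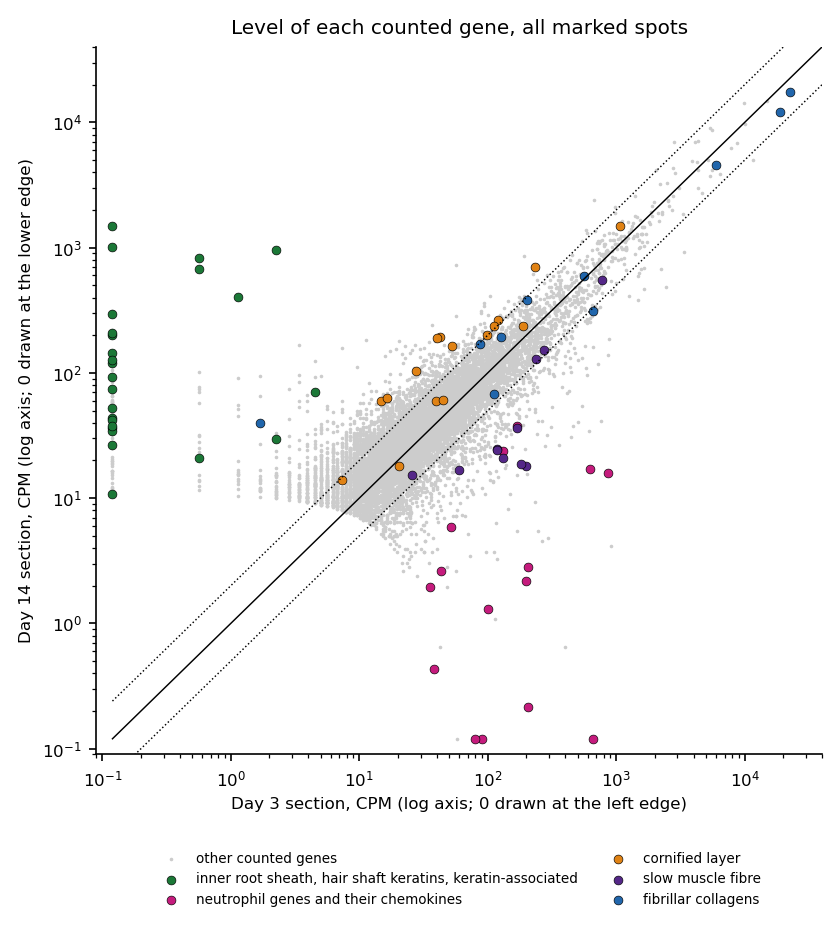
Level of each of the 10955 counted genes in the Day 3 section (horizontal, CPM, log axis) and the Day 14 section (vertical, CPM, log axis), with genes at 0 drawn at the edge, the solid line at equal levels and the dotted lines at 2-fold. Hair genes stand at the left edge with up to 1491 CPM on Day 14 (Krt71), and neutrophil genes and their chemokines lie far below the line, with Cxcl2 at 660 CPM on Day 3 and 0 on Day 14.

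Hair content separated the sections almost completely. A list of 19 hair shaft and inner root sheath genes had 12 UMIs on Day 3 (6.77 CPM) and 30198 UMIs on Day 14 (6548 CPM). On Day 14 the list was found in 681 of 697 spots, with a median of 0.432% of a spot's UMIs and a highest value of 4.67%. On Day 3 it was found in 11 of 664 spots. Hair RNA on Day 14 was therefore spread over nearly the whole section at a low level, with a band of richer spots.

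Among the inner root sheath genes, 11 of 11 counted members were higher on Day 14, with a median log2 ratio of 6.94. Krt71, a type II keratin of the inner root sheath, had 0 UMIs on Day 3 and 6874 on Day 14 (1491 CPM, interval 1456 to 1526), at least 881-fold higher against a floor of 3 UMIs in the Day 3 section. That floor gives a log2 ratio of 9.78, and the lower end of the exact interval was 9.48. Krt25, a type I keratin of the same layer, had 0 and 4688 UMIs and was at least 601-fold higher. Krt27 had 1 and 3820 UMIs, a log2 ratio of 10.52 (interval 8.04 to 15.82). Tchh, trichohyalin, the protein that hardens the inner root sheath, had 4 and 4395 UMIs, or 2.26 and 953 CPM, a log2 ratio of 8.72 (interval 7.36 to 10.60). The 4 genes were thus at or near 0 in the Day 3 section and among the abundant genes of the Day 14 section. Keratins and keratin-associated proteins are families of similar sequence, so the split of UMIs among members of a family is uncertain.

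The promoters of these inner root sheath keratins were read from RefSeq (GRCm38.p6) because their genes moved together. All 11 counted members of the list had a promoter in that table, and 8 of them held the letters TATAAA on either strand within the 250 bases before the start, as did 12.4% of all 32851 promoters. The last 60 bases before the start are printed for 3 of them, with TATAAA in capitals. They are chr15:101743098-101743157 on the minus strand for Krt71, chr11:99322952-99323011 on the minus strand for Krt25 and chr11:99351119-99351178 on the minus strand for Krt27. The letters begin 40, 30 and 15 bases before the start.
Krt71: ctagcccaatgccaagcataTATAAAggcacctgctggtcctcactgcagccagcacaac
Krt25: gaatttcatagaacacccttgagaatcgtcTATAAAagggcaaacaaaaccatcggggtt
Krt27: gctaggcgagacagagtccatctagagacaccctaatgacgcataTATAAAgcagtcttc

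Hair shaft genes moved with the sheath. All 9 counted hair shaft keratins were higher (median log2 ratio 4.64), as were all 5 counted keratin-associated proteins (median 4.48). Krt35, a keratin of the hair cortex, had 0 UMIs on Day 3 and 1373 on Day 14, which was at least 176-fold higher. Krtap4-1, a keratin-associated protein of the hair fibre, had 0 and 1009 UMIs and was at least 129-fold higher. S100a3, a calcium-binding protein of the hair cuticle, had 2 and 1867 UMIs, a log2 ratio of 8.49 (interval 6.63 to 11.53). These 3 genes had at most 2 UMIs on Day 3, but Krtap3-2, another counted keratin-associated protein, had 8 UMIs on Day 3 and 324 on Day 14.

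The regulators of the follicle followed at lower levels. Of 16 counted genes that govern the hair matrix, the dividing cells at the follicle base, 14 were higher and 0 lower, with a median log2 ratio of 2.83. Msx2, a homeobox factor of the hair matrix, had 1 and 471 UMIs, a log2 ratio of 7.50 (interval 5.01 to 12.81). Shh, the hedgehog ligand made by hair matrix cells, had 0 and 154 UMIs and was at least 19.7-fold higher. Wnt10b, a Wnt ligand of growing follicles, had 3 and 300 UMIs, a log2 ratio of 5.26 (interval 3.70 to 7.55). Pigment cell genes were higher for 5 of 8 counted members. Pmel, the fibril protein of melanosomes, stood at 7.34 CPM on Day 3 and 159 CPM on Day 14, a log2 ratio of 4.44 (interval 3.65 to 5.35). Of 11 counted genes of follicle stem cells and the outer root sheath, 5 were higher and 1 was lower, with a median log2 ratio of 1.20. The 5 include Krt75, a keratin of the companion layer, and Postn, which fibroblasts also make.

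The keratin gene clusters made the same contrast by position. In the cluster of type I keratins and keratin-associated proteins on chromosome 11 (GRCm38, counted genes from 99279959 to 100261029), 39 of 43 counted genes were higher on Day 14 and 1 was lower, Krt16. In the type II keratin cluster on chromosome 15 (101347444 to 101954287), 10 of 16 were higher and 1 was lower, Krt6b. The 2 exceptions are keratins of wounded epidermis.

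**Figure D2:**
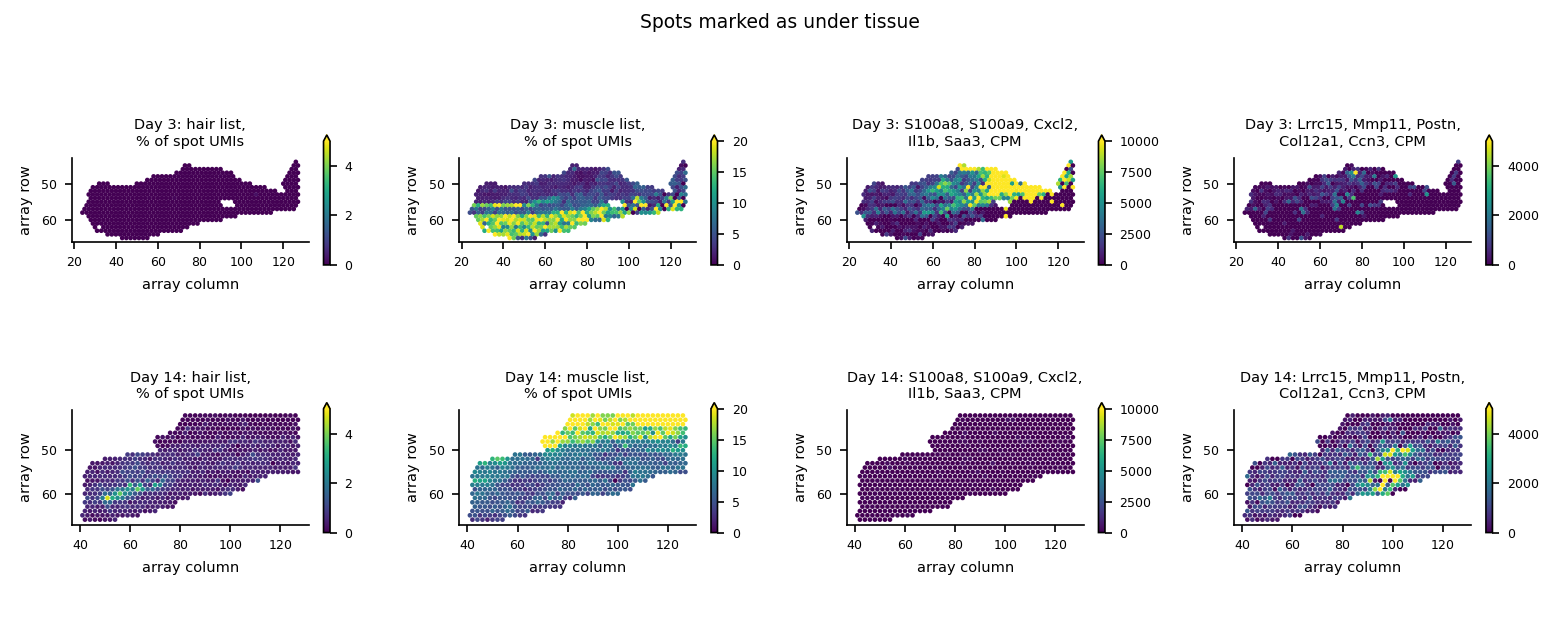
Spots marked as under tissue on Day 3 (upper row, 664 spots) and Day 14 (lower row, 697 spots), placed by array column and row and coloured, from left to right, by the share of UMIs in the hair list and in the muscle list (percent) and by the summed CPM of 5 early genes (S100a8, S100a9, Cxcl2, Il1b, Saa3) and of 5 stromal genes (Lrrc15, Mmp11, Postn, Col12a1, Ccn3). Colour scales end at a set maximum, and spots above it take the last colour. The early genes had 5875 UMIs in 488 spots on Day 3 and 192 UMIs in 154 spots on Day 14. The stromal genes had 671 UMIs in 228 spots on Day 3 and 4703 UMIs in 588 spots on the deeper Day 14 section. Pooled over spots, the early genes stood at 3315 and 41.6 CPM and the stromal genes at 379 and 1020 CPM. The stromal genes were grouped after their values were seen, and Lrrc15 was hair-linked on Day 14.

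Muscle content differed less in amount than in kind. A list of 20 striated muscle genes held 4.73% of UMIs on Day 3 and 6.91% on Day 14. Of 14 counted genes of fast fibres, 0 were higher and 1 was lower, with a median log2 ratio of 0.54. Acta1, skeletal muscle actin, stood at 9866 CPM on Day 3 and 14162 CPM on Day 14, a log2 ratio of 0.52 (interval 0.50 to 0.55). Slow fibre genes behaved otherwise, with 7 of 11 counted members lower and a median log2 ratio of -2.20. Myh7, the slow myosin heavy chain, had 321 UMIs on Day 3 and 86 on Day 14, or 181 and 18.6 CPM, 9.71-fold lower on Day 14 (log2 ratio -3.28, interval -3.64 to -2.93). Myl2, the slow regulatory light chain, had 354 and 84 UMIs and was 11-fold lower.

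Slow fibre genes were lower within muscle-rich spots too. In the muscle-rich spots of the sections, where the muscle list held at least 5% of UMIs (339 spots on Day 3 and 551 on Day 14), 11 of 11 counted slow fibre genes were lower, with a median log2 ratio of -3.23. The 14 counted fast fibre genes had 1 call there, lower, but their median log2 ratio was -0.67, against 0.54 in all marked spots, and each lay below 0 (-2.83 to -0.18). The muscle list chose these spots and holds genes of both fibre types, among them Acta1, Myh7 and Myl2. Their ratios there are therefore not independent of how the spots were chosen. The muscle list itself stood at 130056 CPM on Day 3 and 86524 CPM on Day 14 in muscle-rich spots, and its part in these ratios was not tested. That set of spots was compared after the data were seen, and among its 8745 counted genes 861 were higher (9.85%) and 182 lower (2.08%), around a median log2 ratio of 0.60. Genes of embryonic and regenerating muscle went the other way in all marked spots, with 3 of 5 counted members higher. Actc1, cardiac actin, which developing and regenerating skeletal muscle also makes, had 20 UMIs on Day 3 and 840 on Day 14, or 11.3 and 182 CPM, a log2 ratio of 4.01 (interval 3.38 to 4.73). Myl4, the embryonic light chain, had 13 and 181 UMIs, a log2 ratio of 2.42 (interval 1.61 to 3.36). In all marked spots 13 of 14 fast fibre genes had no call.

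Because hair and muscle differed between the sections, the comparison was repeated without spots in which the hair list held at least 1% of UMIs or the muscle list at least 5%. This left 325 spots and 1356299 UMIs on Day 3 and 113 spots and 1201435 UMIs on Day 14. The hair list still held 0.416% of UMIs in the remaining Day 14 spots, so leaving out hair-rich spots lowered hair RNA without removing it. A second measure was therefore used, chosen after the data were seen. A gene was called hair-linked when its Day 14 CPM in the 54 hair-rich spots exceeded that in the other marked spots with its whole interval at or beyond 1.5-fold, and muscle-linked on either day in the same way. Of all counted genes, 1.77% were hair-linked, 1.81% muscle-linked on Day 14 and 5.08% muscle-linked on Day 3.

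Without hair-rich and muscle-rich spots, 7876 genes were counted, of which 250 were higher (3.17%) and 340 lower (4.32%), so that 42.4% of the calls were higher against 55.3% with the mean of spot CPM, 30.6% with DESeq2 size factors and 32.2% with a muscle limit of 2%. Of the 510 genes higher in all marked spots, 124 (24.3%) were hair-linked and 3 muscle-linked on Day 14. The hair list chose the hair-rich spots, and 16 of the 124 belong to it, so their link follows from that choice. Of the 510, 327 were still counted without those spots, 211 kept the call, 116 no longer had their whole interval beyond 2-fold, and 183 fell under the minimum of UMIs. None of the 510 was called lower. Genes that were linked to neither tissue on Day 14 and kept the call numbered 154, and 55 hair-linked genes kept it as well. Some regulators made by follicles, Shh and Wnt10b among them, did not meet the hair-linked limit, so the 154 genes can still hold follicle RNA.

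The lower genes were followed in the same way. The spots without hair and muscle held 76.5% of marked UMIs on Day 3 but 26.1% on Day 14. Of the 407, 361 were still counted there, 46 fell under the minimum of UMIs, 301 kept the call and 0 were called higher. Only 29 of the 407 were muscle-linked on Day 3. This left 282 genes that were lower, not muscle-linked on Day 3 and lower again without those spots. In another set, the matrix-rich spots, the matrix list held at least 5% of UMIs as well (144 spots on Day 3 and 42 on Day 14). These spots need not be like tissue on the 2 days. They held 38.5% of marked UMIs and 63% of those of Krt15, an epidermis list gene, on Day 3. On Day 14 they held 7.36% and 5.9%. For Col12a1, a collagen, the shares were 24% on Day 3 and 14% on Day 14. Of 3792 genes counted there, 62 were higher (1.64%) and 115 lower (3.03%), so that 35.0% of the calls were higher against 54.5% with a muscle limit of 10%. A muscle limit of 2% left 1 matrix-rich spot on Day 14, in which all 3 calls were higher (100% of the calls). Of the 154 and 282 genes, 29 and 86 had the same call in matrix-rich spots. Only 126 of the 510 higher and 255 of the 407 lower genes were counted there. A gene without a call in matrix-rich spots can therefore be one under the minimum of UMIs.

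Inflammatory genes were among the deepest of the lower values. Of the chemokines that attract neutrophils, 3 of 3 counted members were lower in all marked spots and again without hair-rich and muscle-rich spots. Cxcl2 had 1170 UMIs on Day 3 (660 CPM, interval 623 to 699) and 0 on Day 14, at least 1015-fold lower against a floor of 3 UMIs in the Day 14 section. Without hair-rich and muscle-rich spots it had 990 and 0 UMIs and was at least 292-fold lower. Cxcl3 had 159 and 0 UMIs, at least 138-fold lower, and Cxcl5 had 365 and 1, a log2 ratio of -9.89 (interval -15.20 to -7.40). All 3 transcripts were thus at 0 or 1 UMI in the Day 14 section, although it held more UMIs in total.

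The promoters of Cxcl2 and Cxcl3 are shown because NF-kappaB, the transcription factor of the inflammatory response, is known to act on such chemokine genes. Cxcl5 is named only. The letters GGGANNTTCC, searched on both strands in the 250 bases before the start, occurred in 1.21% of the 32851 RefSeq promoters and in both of these. The 110 bases before the start are printed, at chr5:90903789-90903898 on the plus strand for Cxcl2 and chr5:90785991-90786100 on the plus strand for Cxcl3. Capitals mark the matched letters, which in both are a match on each strand overlapping by all but 1 base, beginning 97 bases before the start of Cxcl2 and 73 before that of Cxcl3. Among 12 counted neutrophil genes with a promoter in the table, 1 held the letters, Csf3r.
Cxcl2: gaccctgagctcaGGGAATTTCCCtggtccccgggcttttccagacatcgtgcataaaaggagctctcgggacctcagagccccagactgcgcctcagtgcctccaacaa
Cxcl3: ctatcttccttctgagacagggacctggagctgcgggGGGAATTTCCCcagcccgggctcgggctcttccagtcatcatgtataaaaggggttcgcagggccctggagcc

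Neutrophil genes were lower without exception, 12 of 12 counted members in all marked spots (median log2 ratio -5.47) and 12 of 12 again without hair-rich and muscle-rich spots (median -5.36). S100a8, which with S100a9 forms the calprotectin complex of neutrophils, had 1103 UMIs on Day 3 and 79 on Day 14, or 622 and 17.1 CPM, and was 36.3-fold lower (log2 ratio -5.18, interval -5.53 to -4.85). S100a9 had 1521 and 73 UMIs and was 54.2-fold lower. Trem1, an amplifying receptor of neutrophils and monocytes, had 140 and 0 UMIs and was at least 121-fold lower. Slpi, a protease inhibitor of neutrophils and epithelia, had 351 and 10 UMIs and was 91.3-fold lower. The list as a whole stood at 2544 CPM on Day 3 and 112 CPM on Day 14.

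Genes of cytokines and of the acute phase were lower as well. Of 7 counted interleukin and prostaglandin genes, 5 were lower and 0 higher (median log2 ratio -2.11). Il1b, the inflammatory cytokine interleukin-1 beta, had 468 and 21 UMIs, or 264 and 4.55 CPM, and was 58.0-fold lower (log2 ratio -5.86, interval -6.56 to -5.23). In matrix-rich spots it was 10.8-fold lower. Ptgs2, the inducible enzyme of prostaglandin synthesis, had 200 and 17 UMIs and was 30.6-fold lower. Saa3, a serum amyloid A of inflamed tissue, had 1613 and 19 UMIs, or 910 and 4.12 CPM, and was 221-fold lower in all marked spots and 138-fold lower in matrix-rich spots. Of 14 counted acute phase and complement genes, 13 were lower (median log2 ratio -1.91). C3, the central complement component, stood at 598 and 95.4 CPM, a log2 ratio of -2.65 (interval -2.81 to -2.49), and C4b at 543 and 132 CPM, a log2 ratio of -2.05 (interval -2.19 to -1.90). Il1b and Saa3 lay far below the medians of their lists.

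Chemokines of the CC class, which attract monocytes and lymphocytes, were lower for 8 of 11 counted members and higher for 1. Ccl4, a chemokine made by activated macrophages, had 440 and 25 UMIs and was 45.8-fold lower, and Ccl3 had 201 and 5 UMIs and was 105-fold lower. Ccl8, a monocyte chemokine, stood at 858 CPM on Day 3 and 139 CPM on Day 14, a 6.16-fold difference (log2 ratio -2.62, interval -2.76 to -2.49). Ccl5 was the exception. This chemokine, which T cells and natural killer cells make among others, had 6 UMIs on Day 3 and 274 on Day 14, or 3.39 and 59.4 CPM, a log2 ratio of 4.13 (interval 2.99 to 5.59). Without hair-rich and muscle-rich spots its log2 ratio was 4.82 (interval 3.66 to 6.29), and it was not hair-linked. Of 7 counted T cell genes 1 was higher, Cd3g of the T cell receptor complex, with 7 and 86 UMIs and a log2 ratio of 2.24 (interval 1.13 to 3.6), a call that was lost with the mean of spot CPM and when Day 14 was thinned to the Day 3 total.

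Macrophage genes were lower by smaller factors than neutrophil genes. Of 12 counted genes of resident macrophages, 10 were lower, with a median log2 ratio of -2.17, and of 13 counted genes of wound macrophages 8 were lower, with a median of -1.26. In muscle-rich spots 3 of 11 counted wound macrophage genes were higher and 2 lower, with a median of -0.28. Of 10 counted resident macrophage genes there, 6 were lower, with a median of -1.69. Mrc1, the mannose receptor, had 549 and 171 UMIs, or 310 and 37.1 CPM, and was 8.35-fold lower. Pf4, a chemokine of platelets and tissue macrophages, had 901 and 188 UMIs and was 12.5-fold lower. Spp1, osteopontin, stood at 456 and 191 CPM, a log2 ratio of -1.26 (interval -1.40 to -1.12). Antigen presentation had 1 of 8 counted members lower, Cd74, the invariant chain of class II molecules, at 1492 and 624 CPM. That call was lost with the mean of spot CPM and over all spots of the slide, and H2-Ab1, a class II chain, had a log2 ratio of -0.31 (interval -0.40 to -0.22).

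Epidermal genes split into a wound set and a barrier set. Keratins of wounded epidermis were lower for 2 of 5 counted members and higher for 1. Krt6b had 706 UMIs on Day 3 and 3 on Day 14, a log2 ratio of -9.26 (interval -11.54 to -7.71). Krt6a, of the same family, had 860 and 1092 UMIs, a log2 ratio of -1.04 (interval -1.17 to -0.90), which was no call. It was lower without hair-rich and muscle-rich spots, at -1.20 (interval -1.39 to -1.01), and stood at 0.90 in muscle-rich spots, with no call. The split of UMIs between Krt6a and Krt6b is uncertain. Krt16, with which the Krt6 keratins pair, had 1097 and 159 UMIs, or 619 and 34.5 CPM, and was 18-fold lower. Krt17 was the higher member, with 342 and 3969 UMIs and a log2 ratio of 2.16 (interval 2.0 to 2.32). Krt17 is also a keratin of the follicle's outer sheath, and it was hair-linked. Of 6 counted small proline-rich and stefin genes, 5 were lower, and which cells made them was not tested. Sprr1b, a cross-linked protein of the cornified envelope, had 100 and 12 UMIs and was 21.7-fold lower, and Cstdc4, a stefin A-like gene, had 103 and 0 UMIs and was at least 89.3-fold lower.

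Barrier genes of the upper epidermis were higher in part, and more of them without hair-rich and muscle-rich spots. Of 16 counted genes of the cornified layer, 7 were higher and 0 lower (median log2 ratio 1.10), and without those spots 10 of 15 were higher (median 1.67). The epidermis list held 1.17% of UMIs on Day 3 and 2.05% on Day 14 in those remaining spots, and its part in the result was not tested. Flg, filaggrin, which bundles keratin in the granular layer, had 72 and 872 UMIs, or 40.6 and 189 CPM, a log2 ratio of 2.22 (interval 1.87 to 2.59) that was 3.10 without those spots and 3.12 in matrix-rich spots. Krt77, a keratin of the upper epidermis, had 1189 and 11078 UMIs, or 671 and 2402 CPM, a log2 ratio of 1.84 (interval 1.75 to 1.93). Krt10, the keratin of spinous cells, stood at 583 and 1378 CPM, a log2 ratio of 1.24 (interval 1.15 to 1.34) and 2.16 without those spots, although its call was lost over all spots of the slide. Krt14, the keratin of basal cells, stood at 2580 and 2151 CPM, a log2 ratio of -0.26 (interval -0.31 to -0.21). Krt5, its basal partner, stood at 987 and 1903 CPM, a log2 ratio of 0.95 (interval 0.87 to 1.02), which was no call, and was higher without those spots, at 1.35 (interval 1.26 to 1.43).

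The epidermal differentiation complex on chromosome 3 (GRCm38, 90511034 to 93526287) holds genes of the barrier set and small proline-rich genes beside S100 genes. Of its 45 counted genes, 18 were higher on Day 14 and 4 were lower. Late cornified envelope genes were higher for 9 of 15 counted members, Lce1m with 417 and 3255 UMIs and a log2 ratio of 1.58 (interval 1.44 to 1.74), a call that was lost over all spots of the slide. S100a8, S100a9, S100a4 and Sprr1b were the lower genes, and S100a8 and S100a9 are among the neutrophil genes described above. Prr9, S100a3 and Tchh, the highest in the complex, were hair genes. Late cornified envelope and small proline-rich genes are also families of similar sequence.

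**Figure D3:**
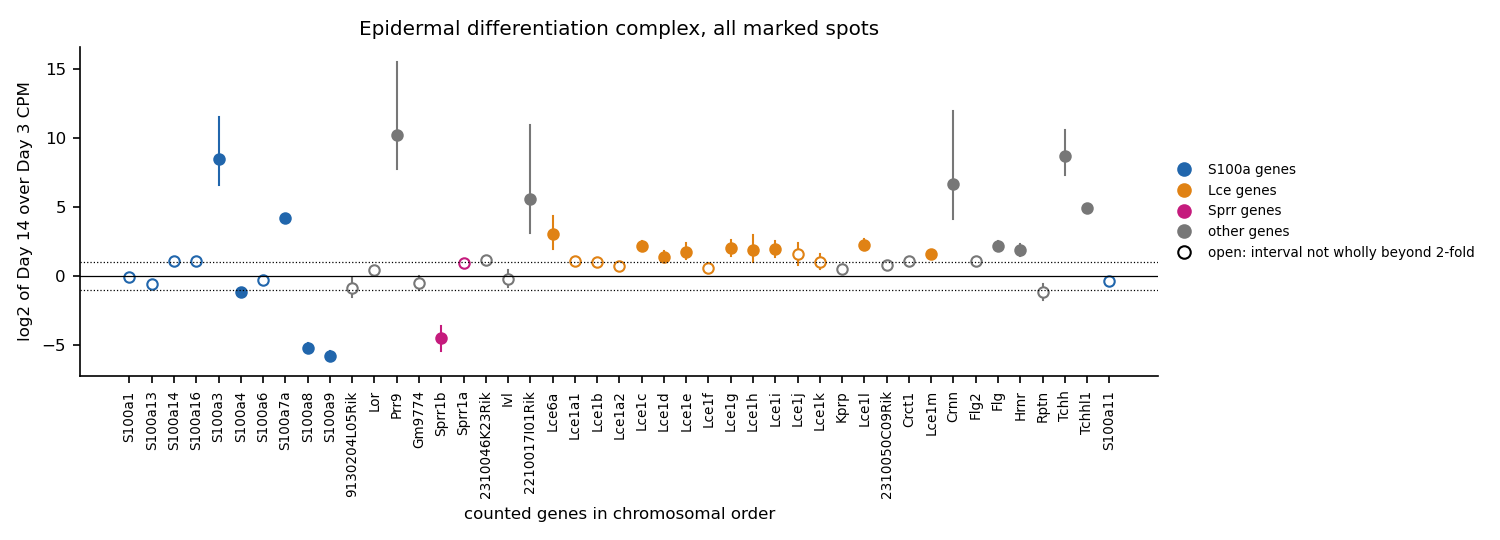
Log2 of Day 14 over Day 3 CPM (vertical) for the 45 counted genes of the epidermal differentiation complex in chromosomal order, with exact 95% intervals, filled points for calls and open points for genes whose interval was not wholly beyond 2-fold. S100a8 at -5.18 and S100a9 at -5.76 lie lowest, and Prr9 at 10.22, Tchh at 8.72 and S100a3 at 8.49 lie highest.

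Most fibrillar collagen genes had no call in all marked spots. Of 10 counted fibrillar collagen genes, 1 was higher and 0 lower, with a median log2 ratio of -0.14. Col1a1, the main chain of type I collagen, had 40217 and 80572 UMIs, or 22692 and 17471 CPM, a log2 ratio of -0.38 (interval -0.39 to -0.36). Col3a1 stood at 6000 and 4544 CPM, a log2 ratio of -0.40. With the mean of spot CPM the signs changed, to 0.11 for Col1a1, 0.17 for Col3a1 and 0.20 for the median of the list. Over all spots of the slide that median was 0.12. The higher member was Col11a1, a minor fibrillar chain, with 3 and 183 UMIs and a log2 ratio of 4.55 (interval 2.98 to 6.84). Acta2, smooth muscle actin, the marker of myofibroblasts, had a log2 ratio of 0.90 (interval 0.66 to 1.15), and Tnc, tenascin C of early wound matrix, 0.12 (interval -0.08 to 0.34). None of Col1a1, Col3a1, Acta2 and Tnc was called in all marked spots.

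Most genes of matricellular proteins had no call. Of 15 counted matricellular proteins, 4 were higher and 1 lower, with a median log2 ratio of -0.06, and in matrix-rich spots 3 of 12 were higher and 1 lower. The genes described next were grouped after their values were seen, and the log2 ratio of each was larger in matrix-rich spots than in all marked spots. Postn, periostin, a matricellular protein that binds collagen, had 425 and 2537 UMIs, or 240 and 550 CPM, a log2 ratio of 1.20 (interval 1.05 to 1.35). The log2 ratio of Postn was 1.35 without hair-rich and muscle-rich spots and 2.55 (interval 2.32 to 2.78) in matrix-rich spots, and its call in all marked spots was lost with TMM factors, DESeq2 size factors and thinning. The matrix-rich spots held 38.5% of Day 3 UMIs and 47.8% of those of Postn, and 7.36% and 23.3% on Day 14. Col12a1, a collagen that coats fibrils, had a log2 ratio of 0.95 (interval 0.70 to 1.21) over all marked spots, which was no call, and 2.55 (interval 2.0 to 3.13) in matrix-rich spots. Lrrc15, a surface protein of matrix-producing myofibroblasts, had 36 and 830 UMIs, or 20.3 and 180 CPM, a log2 ratio of 3.15 (interval 2.67 to 3.67), and 3.99 in matrix-rich spots. Lrrc15 was hair-linked on Day 14. Mmp11, stromelysin-3 of remodelling stroma, had 33 and 327 UMIs, a log2 ratio of 1.93 (interval 1.41 to 2.49), and 2.97 in matrix-rich spots.

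Other matrix and signalling genes were also higher. Ccn3, a matricellular protein, had 22 and 229 UMIs, a log2 ratio of 2.0 (interval 1.37 to 2.70) in all marked spots, where the call was lost with the mean of spot CPM, and 4.03 (interval 2.90 to 5.41) in matrix-rich spots. Igfbp2, which binds insulin-like growth factors, had 53 and 452 UMIs, a log2 ratio of 1.71, and 3.25 in matrix-rich spots. Col7a1, the anchoring fibril collagen beneath the epidermis, had 80 and 657 UMIs, a log2 ratio of 1.66, and 2.73 in matrix-rich spots. Megf6, a secreted protein with EGF-like repeats, had 17 and 510 UMIs, or 9.59 and 111 CPM, a log2 ratio of 3.53 (interval 2.83 to 4.32), and 4.73 in matrix-rich spots. Prss35, a serine protease-like protein, had 2 and 239 UMIs, a log2 ratio of 5.52 (interval 3.65 to 8.58). In matrix-rich spots Prss35 had 0 and 77 UMIs and was at least 51.6-fold higher. Several of these genes stood higher in the Day 7 section than on Day 14, with Postn at 3692 CPM on Day 7, Col12a1 at 963, Col7a1 at 531, Lrrc15 at 370, Prss35 at 269, Mmp11 at 231 and Megf6 at 171 CPM. Ccn3 stood at 49.5 CPM in the Day 7 section, against 49.7 CPM on Day 14, and Igfbp2 at 30.2 against 98.0 CPM.

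Other matrix genes were lower on Day 14. Of 18 counted matrix proteases and inhibitors, 6 were lower and 2 higher. Timp1, the inducible inhibitor of metalloproteinases, had 967 and 250 UMIs, or 546 and 54.2 CPM, and was 10.1-fold lower. Mmp3, stromelysin-1, had 668 and 356 UMIs and was 4.88-fold lower, and 8.71-fold lower in matrix-rich spots. Thbs1, thrombospondin-1, a matricellular protein that platelets also release, stood at 445 and 31.0 CPM and was 14.4-fold lower. Prg4, lubricin, a lubricating proteoglycan, had 211 and 15 UMIs and was 36.6-fold lower, with 118 and 1 UMIs in matrix-rich spots. Mmp3 and Mmp11, both stromelysins, thus lay on opposite sides.

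Itgbl1, integrin beta-like 1, the gene that the study followed, had 130 UMIs on Day 3 and 266 on Day 14, or 73.4 CPM (interval 61.3 to 87.1) and 57.7 CPM (interval 51 to 65.0). Its log2 ratio was -0.35 (interval -0.65 to -0.03) in all marked spots, -0.26 (interval -0.68 to 0.16) without hair-rich and muscle-rich spots and 0.18 (interval -0.33 to 0.67) in matrix-rich spots, and it was not called in any of them. With the mean of spot CPM the log2 ratio of Itgbl1 changed sign, to 0.15 in all marked spots and 0.16 without hair-rich and muscle-rich spots. Its level on Day 7 was 124 CPM.

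**Figure D4:**
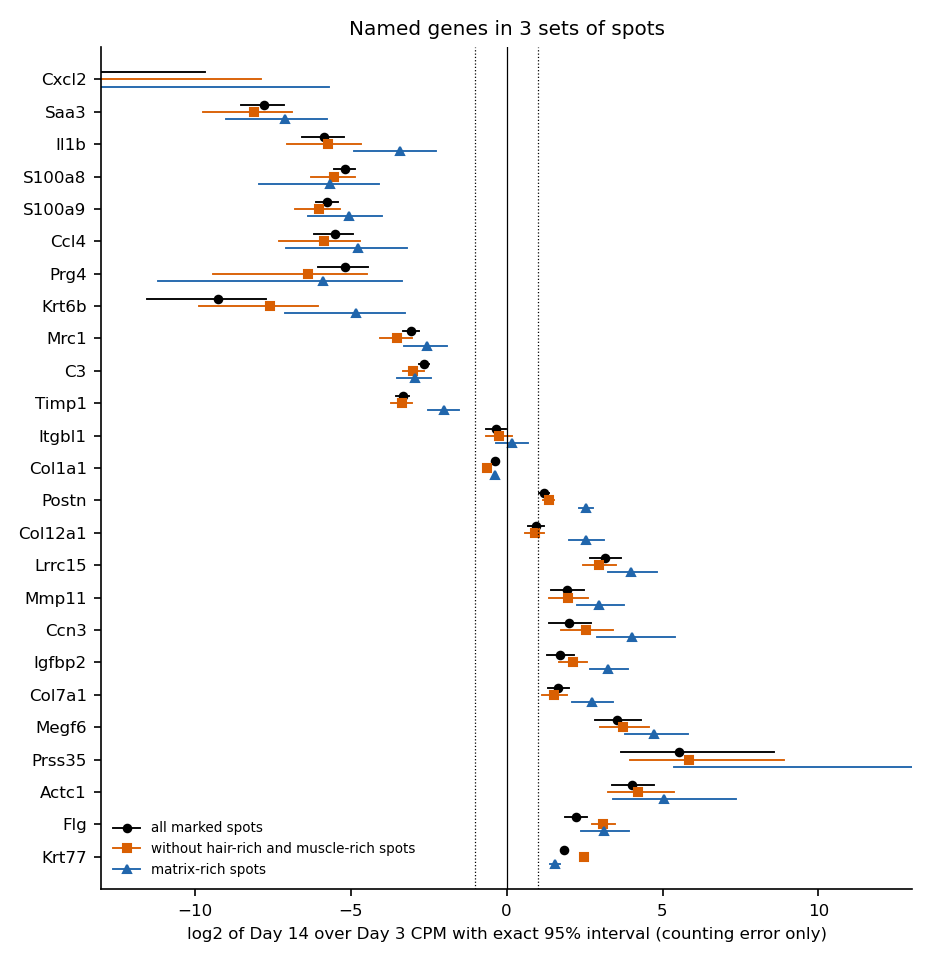
Log2 of Day 14 over Day 3 CPM with exact 95% intervals (counting error only) for 25 genes in all marked spots (circles), without hair-rich and muscle-rich spots (squares) and in matrix-rich spots (triangles). Lines that reach the frame have no bound on that side, and no point is drawn where a day had 0 UMIs. Postn moves from 1.20 to 2.55 and Ccn3 from 2.0 to 4.03 between all marked and matrix-rich spots, and Saa3 stays below -7 in all 3 sets.

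Many genes of endothelium, fat and blood were lower on Day 14 in all marked spots. Of 14 counted endothelial genes, 8 were lower, and 9 of 13 without hair-rich and muscle-rich spots. In muscle-rich spots 0 of 10 were lower, and those spots held 75.7% of the Day 14 UMIs of Pecam1. Of 7 counted genes of pericytes, the cells that wrap small vessels, 0 were called in all marked spots (median log2 ratio -0.19). Pecam1, an adhesion molecule of endothelial junctions, stood at 125 and 43.8 CPM, a log2 ratio of -1.51 (interval -1.79 to -1.23), and -2.32 without those spots. Its call in all marked spots was lost with the mean of spot CPM and with thinning. Apln, apelin, a peptide of sprouting vessels, had 171 and 17 UMIs and was 26.2-fold lower. Of 11 counted fat genes 9 were lower. Fabp4, the fatty acid binding protein of adipocytes, stood at 1644 and 470 CPM, and Adipoq, adiponectin, at 177 and 43.8 CPM. Of 12 counted haem and iron genes 7 were lower. Hbb-bs, a beta globin chain of red cells, stood at 1661 and 691 CPM, a log2 ratio of -1.26 (interval -1.34 to -1.19), and -2.22 without those spots. Slc2a3, a glucose transporter of neutrophils, neurons and hypoxic cells, had 298 and 25 UMIs and was 31.0-fold lower.

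Cell cycle genes went the other way, with 7 of 17 counted members higher and 0 lower (median log2 ratio 1.33). Without hair-rich and muscle-rich spots 4 of 16 were higher. Hmgb2, a chromatin protein of dividing cells, had 167 and 1671 UMIs, or 94.2 and 362 CPM, a log2 ratio of 1.94 (interval 1.71 to 2.18), and 1.96 in matrix-rich spots. Top2a, the topoisomerase of dividing cells, stood at 24.3 and 88.7 CPM, a log2 ratio of 1.87 (interval 1.41 to 2.36). Mki67, the proliferation antigen, had a log2 ratio of 1.33 (interval 1.005 to 1.67), a call that was lost with TMM factors, DESeq2 size factors and thinning. Hair matrix cells divide, and the hair list moved with these genes, from 6.77 to 6548 CPM. Its part in them was not tested. Genes of the respiratory chain, secretory stress and the mitochondrial genome had no call in all marked spots, for 0 of 17, 0 of 14 and 0 of 10 counted members. In muscle-rich spots 2 of 17 genes of the respiratory chain and 6 of 10 of the mitochondrial genome were lower.

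**Figure D5:**
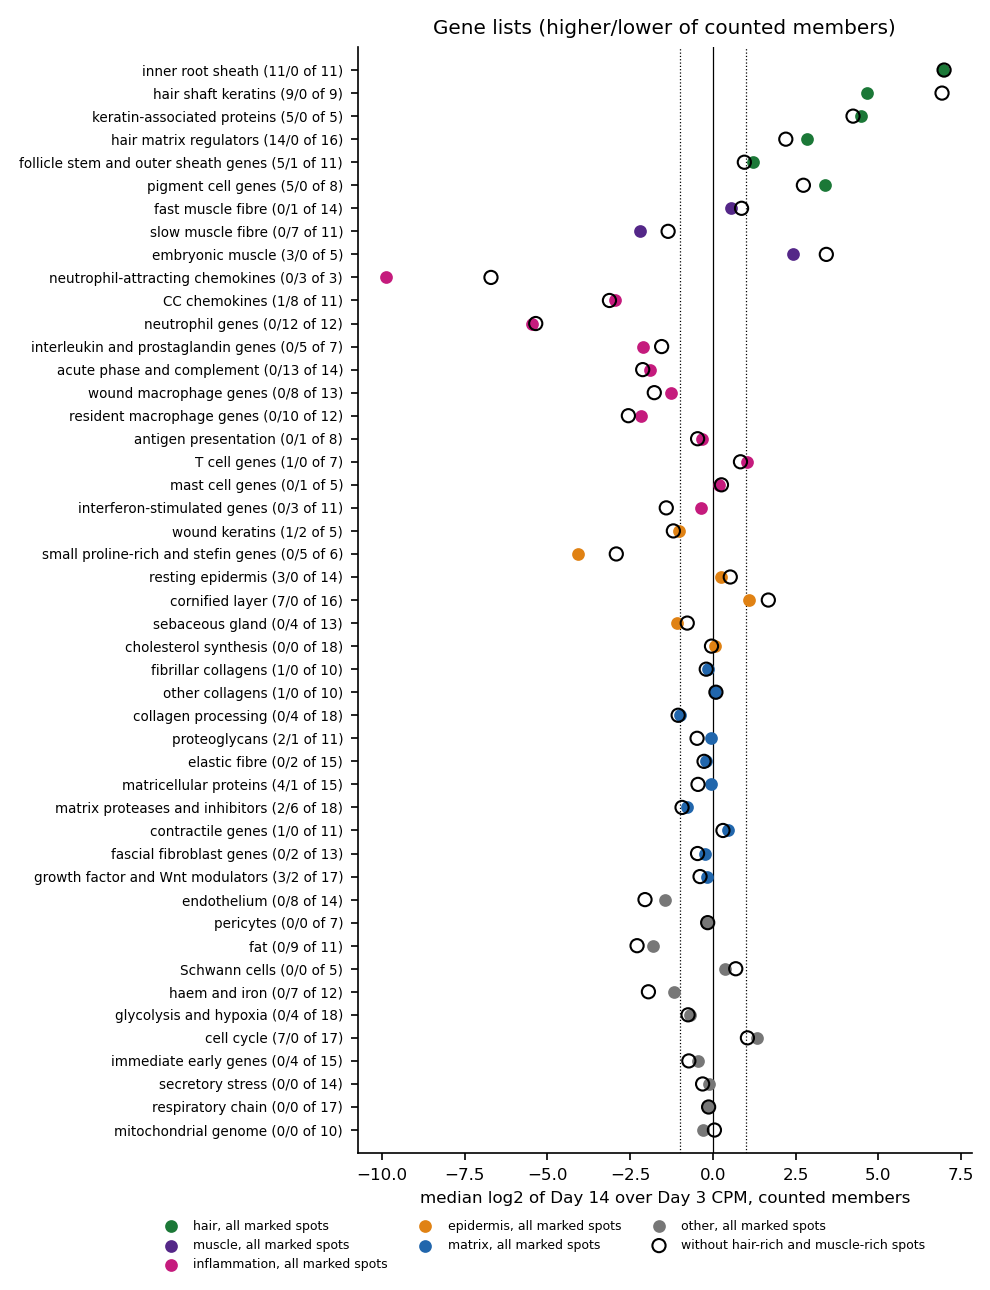
Median log2 of Day 14 over Day 3 CPM for each of the 47 gene lists in all marked spots (filled, coloured by kind) and without hair-rich and muscle-rich spots (open, drawn where at least 2 members were counted), with the numbers higher and lower of the members counted beside each name. Inner root sheath genes lie highest at 6.94, and neutrophil-attracting chemokines lie lowest at -9.89.

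Some genes kept their call in all 3 sets of spots. Among the 29 genes higher in all marked spots, again without hair-rich and muscle-rich spots and again in matrix-rich spots, and linked to neither tissue on Day 14, were Prss35, Megf6, Ccn3, Igfbp2, Flg, Postn, Mmp11, Col7a1, Hmgb2, Krt77 and Lce1m. Actc1 was also among the 29, although it was muscle-linked on Day 3 and belongs to the embryonic muscle list. Among the 86 genes lower in the same spots and not muscle-linked on Day 3 were Saa3, Cxcl2, Slpi, S100a8, S100a9, Prg4, Ccl3, Krt6b, Il1b, C3, Thbs1 and Ptgs2. These names were picked from the sets after their values were seen.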

How the data were processed

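Spatial libraries (10x Visium) of the Day 3 and Day 14 sections were analysed. The submitters' processing notes name Space Ranger 1.3.0 and mm10, and the UMI counts that the authors deposited for each gene in each spot are raw. Counts over spots marked as under tissue were pooled per section and scaled to CPM. Exact Poisson intervals were computed for CPM and exact conditional binomial intervals for ratios. No test between days was possible with 1 section per day, and p-values were not computed. Depth was 1772259 UMIs on Day 3 and 4611723 on Day 14. A CPM of 0 was bounded with a floor of 3 UMIs.

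The 47 gene lists hold 619 genes, of which 613 had a row of their own and 534 were counted. The members and lists were chosen with earlier results of these data known. Genes named were the up to 4 members of each list with the most UMIs, the 10 highest and 10 lowest ratios in all marked spots and in spots without hair and muscle, and Itgbl1. The other genes named, the link to hair and muscle, the muscle-rich comparison, the gene clusters and the promoter letters were chosen after their values were seen. Gene positions are from GENCODE M21 (GRCm38), which held 32235 of the 32285 identifiers. Spots are regions, so no doublet caller was run and no cell-type makeup is given. Alternatives were other scalings (mean of spot CPM, DESeq2 1.42.0 size factors, edgeR 4.0.16 TMM, another denominator), other spots, thinning, other minimums and other limits on hair, muscle and matrix. The interval and the call were tested on simulated data. Python 3.11.15, numpy 2.4.6, scipy 1.17.1, pandas 2.3.3, matplotlib 3.10.9 and R 4.3.3 were used.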

Additional observations from a re-analysis of the deposited data

Results flagged for a closer look

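In 2 genes the difference between days was called in opposite directions in 2 kinds of spot, and the difference between the kinds of spot was not tested. Ctsk, a collagen-degrading protease of fibroblasts and osteoclasts, had 32 UMIs on Day 3 and 665 on Day 14 in muscle-rich spots, a log2 ratio of 1.56, against 765 and 270 UMIs and -1.33 without hair-rich and muscle-rich spots. Lhpp, a phosphatase, had 5 and 181 UMIs in muscle-rich spots, a log2 ratio of 2.36, against 295 and 103 UMIs and -1.34. Muscle-rich spots need not be like tissue on the 2 days, as they held 23.5% of marked UMIs on Day 3 and 63.8% on Day 14. The matrix list held 1.62% and 4.36% of their UMIs, against 7.11% and 4.60% without hair-rich and muscle-rich spots. Its part in these ratios was not tested.

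Several lists were also found in spots outside the tissue mark at over 2 times their CPM under it. Fast muscle fibre genes were 2.14 times as high outside the mark on Day 3 and 2.14 times on Day 14, and slow muscle fibre genes 2.05 times on Day 3. On Day 3 the ratio was 2.29 for neutrophil genes, 2.01 for interleukin and prostaglandin genes and 2.01 for the mitochondrial genome. On Day 14 it was 2.53 for fat genes, 2.16 for haem and iron genes and 2.07 for the mitochondrial genome.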

How the results depend on the processing

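No paired analysis was possible because each day had 1 section, and no section could be left out for the same reason. Thinning was not run for the spots without hair and muscle or for matrix-rich spots, whose Day 14 totals were already the smaller. With the mean of spot CPM, 1204 genes were higher in all marked spots (467 of them shared with the 510), 539 without hair-rich and muscle-rich spots and 112 in matrix-rich spots. The count of 407 lower genes stayed within 1.5 times under every alternative run. Without hair-rich and muscle-rich spots, the number higher was 157 with a minimum of 100 UMIs and 420 with 1 UMI. A muscle limit of 10% gave 440 higher there and 199 in matrix-rich spots. A muscle limit of 2% left 97 spots on Day 3 and 3 on Day 14, with 77 genes higher and 162 lower, and 3 and 0 in matrix-rich spots. In matrix-rich spots, minimums of 20, 100 and 1 UMIs gave 117, 31 and 220 higher, and a matrix limit of 3% gave 163 higher and 234 lower. Under the muscle limit of 2%, 8 genes reversed, with log2 ratios of -0.52 for Postn, 0.31 for Myl3, -0.25 for Krt17, 0.078 for Cstdc4, -0.78 for Igfbp2, 0.31 for Cd163, 0.58 for Myh7 and 0.41 for Myl2. The cause was not tested beyond the few spots left.

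Of the 154 genes that stayed raised, 134 were still higher with the mean of spot CPM, 121 with TMM factors, 112 with DESeq2 size factors and 99 of 131 counted with a hair limit of 0.5%. Of the 282 that stayed lowered, 247, 282, 282 and 252 were still lower. Under the muscle limit of 2% the numbers were 20 of 32 counted and 89 of 207 counted. The median log2 ratio of all genes moved from 0.18 to 0.36 with the mean of spot CPM and to 0.055 with DESeq2 size factors. List medians changed sign in 18 of 329 cases. Depth limits the shallower Day 3 section most, where a gene at 0 UMIs could stand at up to 2.08 CPM.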

Other observations

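A few values lay outside the gene groups described. Hspa1b, an inducible heat shock protein, had 65 and 1104 UMIs, or 36.7 and 239 CPM, a log2 ratio of 2.71 (interval 2.34 to 3.09), and 1.95 in matrix-rich spots. Golga7b, a partner of a palmitoyltransferase, had 1 UMI on Day 3 and 342 on Day 14, a log2 ratio of 7.04 (interval 4.55 to 12.35), and it was not hair-linked.

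H19, a long noncoding RNA of fetal and regenerating tissue, stood at 90.8 and 101 CPM over all marked spots, a log2 ratio of 0.15 (interval -0.11 to 0.42). In matrix-rich spots it stood at 24.9 and 150 CPM, a log2 ratio of 2.59 (interval 1.78 to 3.48). Its level on Day 7 was 678 CPM.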
